A study of Mus musculus with 12 samples.

Results

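The extracellular proteases of satellite cells, the resident stem cells of skeletal muscle, and the inhibitors of these proteases were followed from quiescence to activation and after deletion of Gli3. Members were all protein-coding genes in the count table whose symbol begins with Mmp or Adam and a number, begins with Adamts, or is Timp1, Timp2, Timp3 or Timp4. The rule found 64 genes among the 25093 in the table. They comprise 17 matrix metalloproteases (MMPs), 19 ADAMs, 19 ADAMTS proteases, 5 ADAMTS-like proteins and all 4 tissue inhibitors of metalloproteases (TIMPs).

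MMPs are zinc proteases that cut collagens, laminins and other matrix proteins, either after secretion or while anchored to the membrane. ADAMs sit in the plasma membrane, where the proteolytic members release the extracellular parts of Notch receptors, growth factor precursors and adhesion proteins. ADAMTS proteases are secreted and act on matrix proteoglycans, procollagens and microfibrils, whereas ADAMTS-like proteins share their ancillary domains but lack the protease domain. TIMPs occupy the active site of these enzymes, and their ranges differ: Timp3 also inhibits several ADAMs and ADAMTS proteases. Satellite cells lie between the myofiber and a basal lamina of laminin and type IV collagen, so the genes bear on the niche the cells rest in and leave after injury.

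RNA was sequenced from sorted satellite cells of mice aged 3 to 4 months that carried the tamoxifen-inducible Cre Pax7CE/+ and the R26RYFP reporter, all treated with tamoxifen. The mice were either Gli3+/+, labelled control, or carried floxed Gli3 alleles and are called Gli3Δ/Δ, labelled Gli3 knockout; Cre driven from Pax7 deletes 1 exon in satellite cells and their progeny. Quiescent satellite cells (QSCs) came from uninjured hindlimb muscle of several pooled mice per library, and activated satellite cells (ASCs) from muscle of 1 mouse per library 3 days after cardiotoxin injury. Each genotype had 3 QSC and 3 ASC libraries. The ASC columns of the table carry numbers that the labels tie to no sample or genotype, so the 6 ASC libraries were used as a state only and numbered ASC 1 to 6 in column order, and the effect of Gli3 in ASCs was not analysed here. QSCs were gated on α7-integrin and CD34, ASCs on α7-integrin and VCAM1, both after removal of cells with endothelial, blood and SCA1 markers. Activation therefore cannot be told apart from the gate, the muscles used and the pooling of mice.

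Libraries held 36886130 to 65750131 estimated counts. Levels are given as CPM, counts scaled to the size of each library, and 1 count is worth 0.0152 to 0.0271 CPM. The QSC libraries of Gli3+/+ mice had 11.3, 9.63 and 9.40 CPM of Gli3 itself, and those of Gli3Δ/Δ mice 9.58, 10.7 and 6.27 CPM. These ranges overlapped (log2 fold change −0.22 ± 0.22 SE), and as the counts cover the whole gene and not the deleted exon, they do not check the labels. Of 9 satellite cell markers 8 were lower and 1 was higher in ASCs by the test described below, as were 28.8% and 30.4% of all genes. Among these markers, Itga7, Cd34 and Vcam1 encode proteins used in the sorting gates. The library ASC 6 stood apart. Its summed level of 9 macrophage markers was 5494 CPM against 272 to 888 CPM in the other 5 ASC libraries and 11.0 to 30.9 CPM in QSCs. Its fibro-adipogenic markers summed to 3403 CPM against 161 to 537 CPM, and its Schwann markers to 955 against 23.9 to 89.6 CPM. Its satellite cell markers had the lowest sum, 1452 CPM against 1963 to 2373 CPM. Pax7, Myf5, Itga7, Vcam1 and Sdc4 were lowest in ASC 6, whereas Cdh15, Cd34, Calcr and Chodl were not. Values on activation are from all 12 libraries, and those without ASC 6 stand beside them where its removal changed a call or moved a called value by over 1.5 times, and for many other members. In bulk RNA, fewer cells of a type and less RNA per cell cannot be told apart.

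Levels of the family in quiescent cells spanned a wide range, and a few members stood above the rest. To compare genes, CPM was divided by the exon length in kb, and the order in the 6 QSC libraries was led by the inhibitor Timp2 at 162 ± 15.3 CPM per kb (SD, n = 6). Next came the proteoglycanase Adamts1 at 108 ± 25.0 and the gelatinase Mmp2 at 101 ± 23.4 CPM per kb, whose spreads overlap. Timp3 followed at 61.8 ± 36.4 CPM per kb and Adamts10, which binds fibrillin microfibrils, at 52.9 ± 8.45 CPM per kb, again within their spread. The proteoglycanase Adamts5 at 22.6 ± 6.65 and the sheddases Adam10 at 19.1 ± 1.82 and Adam9 at 16.2 ± 1.83 CPM per kb formed the next tier, with overlapping spreads. At the other end Adamts19 had no count in any QSC library, which allows a level of up to 0.00938 CPM (3 counts over the 6 libraries, counting error only), and Adamts16 had 1 count in all. Of the 64 genes, 45 averaged at least 1 CPM in QSCs and 26 at least 10 CPM, against 14692 and 9589 of all 25093 genes.

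A single gene made up most of the summed level of several classes. Mmp2 supplied 79.5 ± 3.56% of the MMP level per length in QSCs (SD, n = 6), with a range of 74.8 to 85.2%. Timp2 supplied 72.8 ± 10.9% of the TIMP level, and Timp3 nearly all of the rest at 26.1 ± 10.9%. In the ADAM class Adam10 held 32.2 ± 2.57%, Adam9 27.3 ± 2.36% and Adam17 16.1 ± 1.497%. In ASCs Mmp2 still held the largest mean share of the MMP level, but at 30.6 ± 4.53%, with a range of 26.1 to 38.7%. The ranges of Mmp15, 12.2 to 29.6%, and of Mmp19, 3.45 to 28.2%, overlapped it. Timp1 went from 0.640% of the TIMP level in QSCs to 54.3 ± 1.96% in ASC 1 to 5, with Timp2 at 42.0 ± 1.70%, whereas in ASC 6 Timp2 held 56.8% and Timp1 29.7%. Adamts14 went from 1.38% of the ADAMTS level in QSCs to 42.7 ± 7.39% in ASC 1 to 5 and 12.1% in ASC 6, where Adamts1 held 42.6%. Adam19 went from 3.07% of the ADAM level to 25.8 ± 4.08% in ASC 1 to 5, within the spread of Adam9 at 21.9 ± 1.99%, and to 11.8% in ASC 6.

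**Figure D1:**
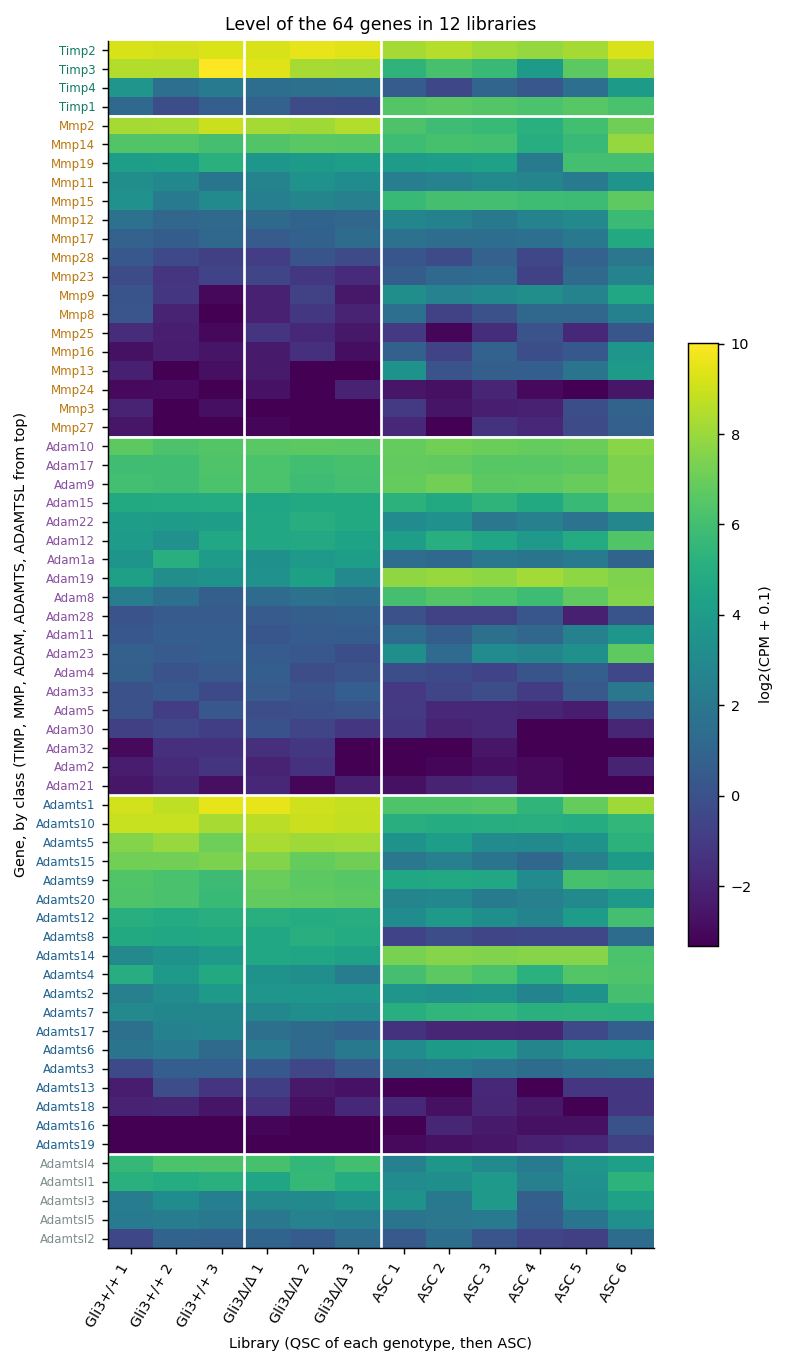
Level of each of the 64 genes as log2(CPM + 0.1), in rows ordered by class and by QSC mean, in the 3 Gli3+/+ QSC, 3 Gli3Δ/Δ QSC and 6 ASC libraries (columns). Timp2, Mmp2, Adamts1 and Adamts10 are bright in all 6 QSC columns, whereas Adamts5, Adamts8, Adamts10 and Adamts15 darken and Timp1, Adam8, Adam19 and Adamts14 brighten in every ASC column.

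Deletion of Gli3 in QSCs was the first comparison, with 3 libraries of each genotype. None of the 64 genes was called, that is, had an adjusted p below 0.05 and a change of at least 1.2-fold in the quasi-likelihood test of edgeR, adjusted by the Benjamini-Hochberg method over all 25093 genes, of which 88 (0.351%) were called. The lowest adjusted p of the family was 0.124. DESeq2 called 3 of the 64 and 384 of all 25093 genes, and limma-voom none of the 64 and 73 of all genes. In edgeR 9 of the 64 had an unadjusted p under 0.05, against 7.11% of all genes. The 3 Gli3+/+ and 3 Gli3Δ/Δ libraries did not overlap for 8 of the 64, against 13.1% of all genes. Means were higher in Gli3Δ/Δ for 31 genes and lower for 32, with a median log2 fold change of −0.02 against −0.03 over all genes. An adjusted p above the threshold does not show that the values were equal. P-values measure the spread between libraries, each of which pooled several mice.

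Of the 9 genes with an unadjusted p under 0.05, 6 were ADAMTS proteases. All 9 were picked by their values in these same libraries, so the lack of overlap given for them is a description only. Adam22, a catalytically inactive ADAM that binds secreted LGI proteins in neurons, was at 17.0, 16.6 and 17.0 CPM in the Gli3+/+ libraries and at 25.0, 31.5 and 27.1 CPM in the Gli3Δ/Δ ones. All 3 Gli3Δ/Δ libraries were above all 3 Gli3+/+ libraries, with a log2 fold change of 0.69 ± 0.14 (SE; unadjusted p = 8.69e-04, adjusted p = 0.124, edgeR). DESeq2 gave it an adjusted p below the threshold.

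Adamts14, a procollagen N-propeptidase, was at 7.79, 11.0 and 15.0 CPM against 24.8, 23.5 and 19.7 CPM in Gli3Δ/Δ. The groups did not overlap (log2 fold change 0.97 ± 0.25, adjusted p = 0.268). Among the proteoglycanases, which cut aggrecan and versican, Adamts4 had the lower values in Gli3Δ/Δ, with 31.2, 15.0 and 27.7 CPM in Gli3+/+ and 11.1, 9.84 and 4.72 CPM in Gli3Δ/Δ. Every Gli3Δ/Δ library was below every Gli3+/+ library (log2 fold change −1.56 ± 0.36, adjusted p = 0.196). Both Adamts14 and Adamts4 were called by DESeq2.

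A further 3 proteoglycanases had the higher values in Gli3Δ/Δ. Adamts5 was at 184, 246 and 134 CPM in Gli3+/+ and at 324, 283 and 290 CPM in Gli3Δ/Δ (log2 fold change 0.64 ± 0.21, adjusted p = 0.462). Adamts20 was at 81.5, 72.2 and 50.7 CPM against 111, 108 and 100.2 CPM (0.61 ± 0.17, adjusted p = 0.361). Adamts9 was at 85.7, 73.7 and 56.0 CPM against 125, 101 and 95.2 CPM (0.55 ± 0.18, adjusted p = 0.468). For each of these genes the libraries of the genotypes did not overlap, and none passed the adjustment.

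Lower values in Gli3Δ/Δ were found for Adamts17, whose human counterpart underlies a form of Weill-Marchesani syndrome, at 2.95, 5.79 and 6.40 against 2.89, 2.39 and 1.76 CPM (−1.14 ± 0.34, adjusted p = 0.419). Mmp19, a secreted MMP active on basement membrane proteins, was at 18.0, 19.4 and 34.8 CPM against 12.9, 15.4 and 17.0 CPM (−0.71 ± 0.27, adjusted p = 0.602). Timp4 was at 12.4, 2.82 and 4.59 CPM against 2.68, 2.94 and 3.00 CPM, so that Gli3+/+ library 1 set its mean and the groups overlapped (−1.22 ± 0.47, adjusted p = 0.623). Schwann markers, which are low in all QSC libraries, summed to 69.6 to 99.6 CPM in Gli3+/+ and to 34.0 to 50.3 CPM in Gli3Δ/Δ. Of 11 marker lists it was the only one whose sums did not overlap between the genotypes, and its part in these values was not tested.

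Several of the most abundant members in QSCs gave overlapping values in the genotypes. Timp2 was at 599, 576 and 626 CPM in Gli3+/+ and at 588, 733 and 669 CPM in Gli3Δ/Δ (log2 fold change 0.11 ± 0.14). Mmp2 was at 303, 313 and 489 CPM against 294, 274 and 362 CPM (−0.29 ± 0.22). Adam10 was at 101, 79.6 and 86.0 CPM against 96.9, 103 and 96.0 CPM (0.12 ± 0.13). The spread between libraries was widest for Timp3, with 357, 364 and 1040 CPM in Gli3+/+ and 666, 305 and 289 CPM in Gli3Δ/Δ. Adamts1 was also highest in Gli3+/+ library 3 and Gli3Δ/Δ library 1, at 738 and 727 CPM, against 429 to 551 CPM in the other 4. Mural cell markers summed to 424 CPM in Gli3+/+ library 3 and to 170 to 240 CPM in the other 5 QSC libraries. Acta2 alone gave 335 CPM of that sum, against 100 to 171 CPM in the other 5. Rgs5, Pdgfrb, Myh11, Kcnj8 and Cspg4 were each highest in another QSC library. The part of mural cells in the Timp3 value was not tested.

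**Figure D2:**
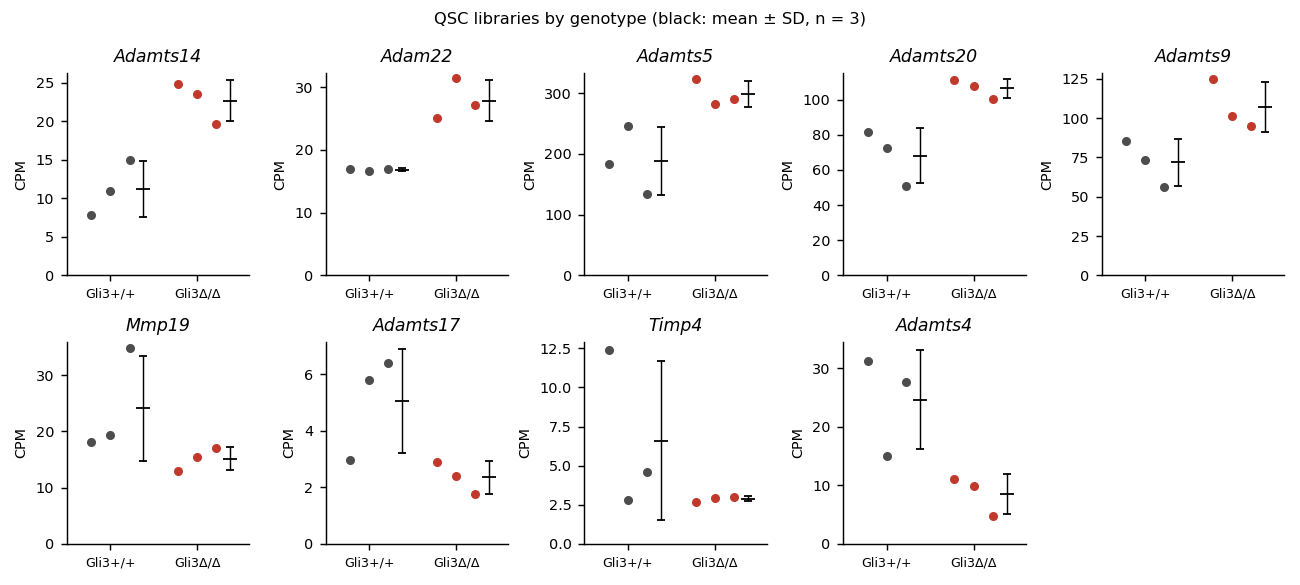
CPM of the 9 genes with an unadjusted p under 0.05 in each QSC library (grey, Gli3+/+; red, Gli3Δ/Δ), with the mean and SD of 3 libraries in black and axes from 0. All but Timp4 show no overlap between the genotypes, and none passed the adjustment over all genes. The genes were picked by their values in these same libraries. Over the family 8 of the 64 genes did not overlap, against 13.1% of all genes.

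Activation was the second comparison, with the 6 ASC libraries against the 6 QSC libraries, genotypes pooled. Of the 64 genes 46 (71.9%) were called, against 59.2% of all genes, and the difference between these shares was not tested. Of the 46, 27 were higher in ASCs (all genes, 30.4%) and 19 lower (28.8%). The deposited table holds genes with at least 5 reads in 2 or more samples, and 57 of the 64 met this within the QSC libraries and again within the ASC libraries. Adamts16, Adamts19, Mmp3 and Mmp27 met it through ASCs only and Adam2 and Adam32 through QSCs only, so that the direction of these 6 was set by the filter, and Mmp24 met it only over both states. Of the 57, 23 were called higher and 18 lower. The 6 libraries of either state did not overlap for 32 of the 64, against 39.6% of all genes. Without ASC 6, 49 genes were called, against 60.6% of all genes, with 26 higher (all genes, 29.3%) and 23 lower (31.2%). Mmp28 was then no longer called, and Adam2, Adamts12, Mmp14 and Timp4 were called as lower. The median log2 fold change of the family was 0.48 (all genes −0.03), and −0.03 without ASC 6 (all genes −0.11).

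Counts by class are given beside the shares of all genes, 30.4% called higher and 28.8% lower, and were not tested against each other. Of the 17 MMPs 11 rose and 1 fell, and 10 rose and 2 fell without ASC 6. Of the 19 ADAMs 8 rose and 6 fell (8 and 7 without ASC 6), and of the 19 ADAMTS proteases 7 rose and 8 fell (7 and 9). Of the 4 TIMPs 1 rose and 2 fell (1 and 3), and of the 5 ADAMTS-like genes 2 fell in either form. The rises include Mmp3, Mmp27, Adamts16 and Adamts19, and the falls Adam32 and, without ASC 6, Adam2. The direction of these genes was set by the filter, so they add nothing to the class counts. Sums of CPM per kb over each class followed the abundant members and not these counts. The MMP sum was 109 to 170 CPM per kb in QSCs and 36.6 to 65.9 in ASC 1 to 5, with 159 in ASC 6. The ADAM sum was 54.1 to 61.9 CPM per kb in QSCs and 122 to 210 in ASCs, with no overlap. The sum over 7 proteoglycanase ADAMTS genes, a group formed after values were seen, was 139 to 214 CPM per kb in QSCs and 17.9 to 79.7 in ASCs. Over all 19 ADAMTS proteases it was 206 to 274 CPM per kb in QSCs and 67.8 to 121 in ASCs. Neither sum overlapped between the states. The TIMP sum overlapped between the states, with a median of 218 CPM per kb in QSCs and 188 in ASCs.

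**Figure D3:**
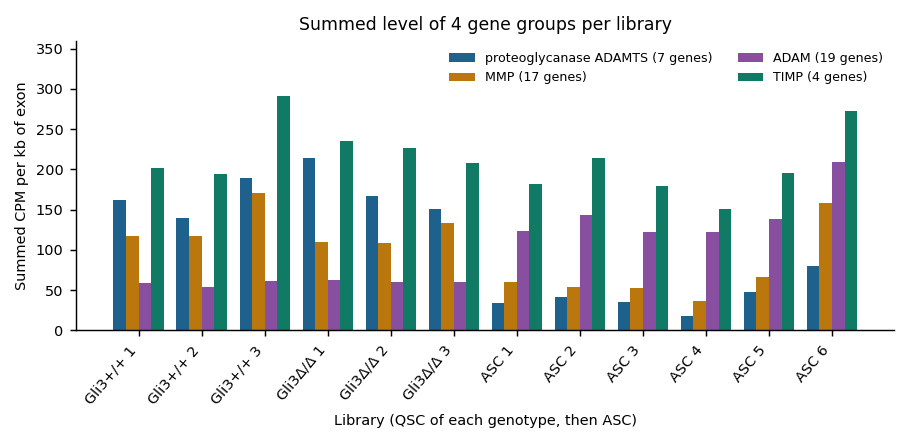
Summed CPM per kb of exon in each library for the 7 proteoglycanase ADAMTS genes, 17 MMPs, 19 ADAMs and 4 TIMPs (bars from 0; no error bars, as each bar is 1 library). ADAM bars reach at most 61.9 in QSC libraries and at least 122 in ASC libraries, and the MMP bar of ASC 6, at 159, stands among those of the QSCs. The proteoglycanase group was formed after values were seen.

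The inhibitors changed in opposite directions. Timp1, which inhibits most secreted MMPs, was at 0.710 to 2.22 CPM in QSCs (median 1.14) and at 71.8 to 98.4 CPM in ASCs (median 87.4). The states were far apart, and ASC 6 had the lowest of the ASC values. Its log2 fold change was 6.08 ± 0.31 (SE; adjusted p = 2.89e-09, edgeR) and 6.11 ± 0.30 without ASC 6. With a mean of 96.5 ± 11.3 CPM per kb Timp1 led the family's order in ASCs, within the spread of Timp2 at 90.3 ± 33.2 CPM per kb.

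Timp3, which is bound to the matrix, fell from 289 to 1040 CPM in QSCs (median 360) to 15.5 to 278 CPM in ASCs (median 60.9). Its highest ASC value was in ASC 6, and the other 5 were at 101 CPM or below. The log2 fold change was −2.44 ± 0.59 (adjusted p = 0.00294) and −3.21 ± 0.48 without ASC 6. Timp2, which also takes part in the activation of pro-Mmp2 by Mmp14, was at 576 to 733 CPM in QSCs (median 612) and at 243 to 370 CPM in ASC 1 to 5. ASC 6, at 602 CPM, lay within the QSC range (log2 fold change −0.84 ± 0.19, adjusted p = 0.00156, and −1.09 ± 0.11 without ASC 6). Timp4 was at 2.68 to 12.4 CPM in QSCs and at 0.634 to 2.78 CPM in ASC 1 to 5, but at 15.3 CPM in ASC 6. It did not pass the test with all libraries (−0.29 ± 0.72, adjusted p = 0.754) and was called lower without ASC 6 (−1.63 ± 0.48, adjusted p = 0.00971).

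**Figure D4:**
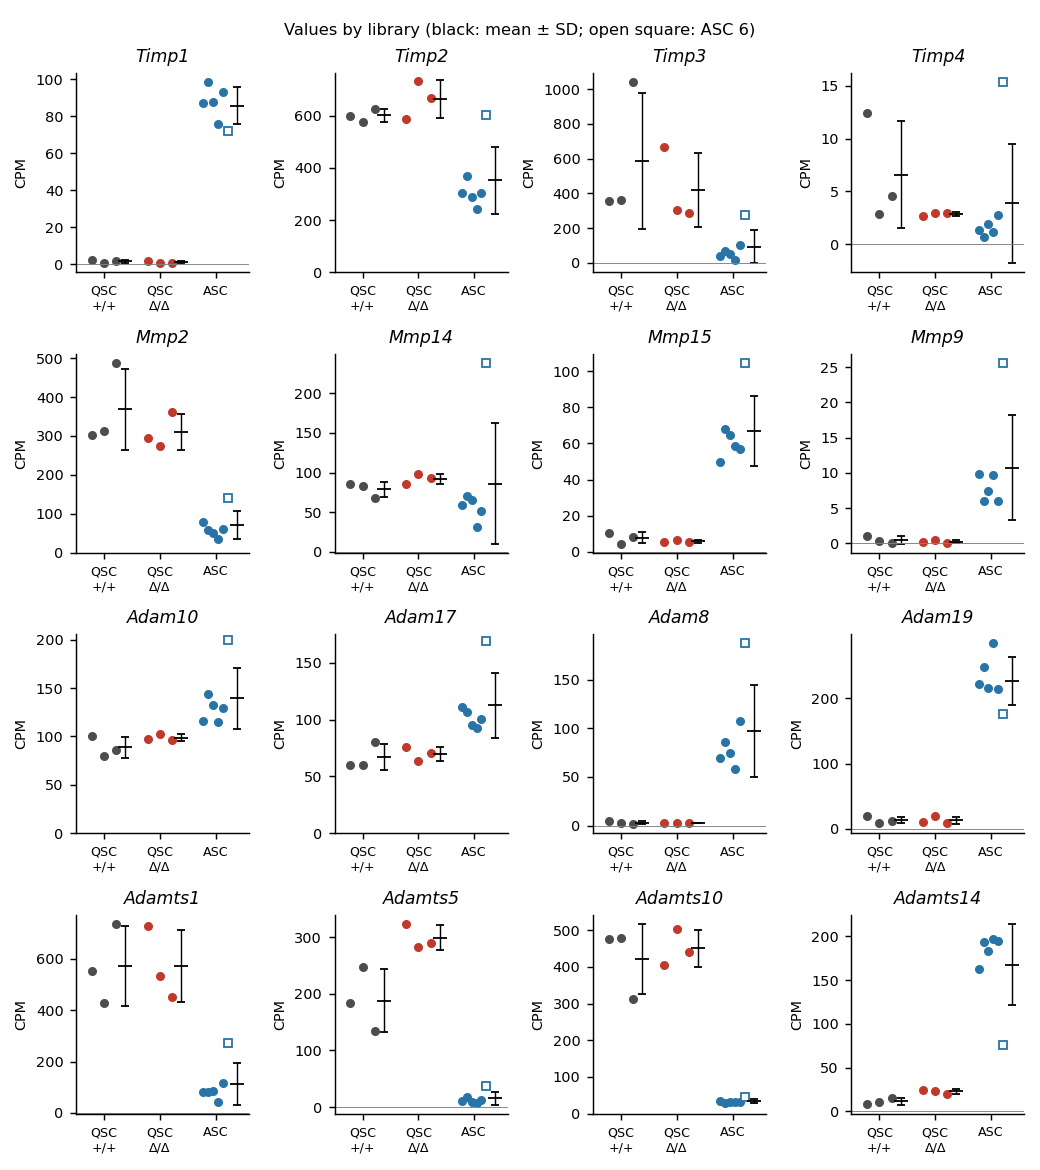
CPM of 16 members in each library, a panel per gene with axes from 0 (grey, Gli3+/+ QSC; red, Gli3Δ/Δ QSC; blue, ASC, with ASC 6 as an open square), and the mean ± SD of each group in black. Timp1, Adam8, Adam19, Mmp15 and Adamts14 lie higher in all 6 ASC libraries and Mmp2, Adamts1, Adamts5 and Adamts10 lower, while for Timp2, Timp4 and Mmp14 ASC 6 lies apart from the other 5.

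Among the MMPs, the gelatinase Mmp2, which degrades type IV collagen, was the only member called lower in ASCs with all libraries. It was at 274 to 489 CPM in QSCs (median 308) and at 35.7 to 139 CPM in ASCs (median 60.6), with ASC 6 highest. The states did not overlap (log2 fold change −2.25 ± 0.28, adjusted p = 1.23e-05, and −2.59 ± 0.21 without ASC 6). Mmp9, the other gelatinase, went from 0.0224 to 1.02 CPM in QSCs (median 0.236) to 6.03 to 25.6 CPM in ASCs (median 8.52). Its log2 fold change was 4.94 ± 0.73 (adjusted p = 5.39e-05) and 4.45 ± 0.62 without ASC 6. Even so, its level per length in ASCs stayed below that of Mmp2, at 3.04 ± 2.11 against 21.1 ± 10.8 CPM per kb. All 9 macrophage markers were also called higher in ASCs, with and without ASC 6. The part of macrophages in the rise of Mmp9 was not tested.

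The membrane-type MMPs act at the cell surface, where Mmp14 cuts fibrillar collagen and activates pro-Mmp2. Mmp15 rose from 4.59 to 10.7 CPM in QSCs (median 6.09) to 50.02 to 105 CPM in ASCs (median 61.5), a log2 change of 3.30 ± 0.24 (adjusted p = 7.49e-08), and of 3.10 ± 0.20 without ASC 6. Mmp14 was at 68.0 to 98.0 CPM in QSCs and at 31.4 to 70.2 CPM in ASC 1 to 5, against 238 CPM in ASC 6. With all libraries its log2 fold change was 0.01 ± 0.38, and without ASC 6 it was called lower at −0.64 ± 0.17 (adjusted p = 0.00569). Mmp16 rose from at most 0.259 CPM in QSCs to 0.565 to 1.73 CPM in ASC 1 to 5, and to 12.7 CPM in ASC 6 (4.84 ± 0.87, adjusted p = 2.83e-04, and 3.42 ± 0.49 without it).

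Mmp13, Mmp12, Mmp3, Mmp8 and Mmp27 lie within 309 kb on chromosome 9 (chr9:7272514-7581885, GRCm38), and all 5 were called higher in ASCs, with and without ASC 6. Against the 3 Gli3+/+ QSC libraries alone, Mmp3, Mmp8 and Mmp27 were not called, and Mmp3 and Mmp27 are in the table through their ASC reads only. Mmp13 and Mmp8 are collagenases, Mmp3 is a stromelysin and Mmp12 the macrophage elastase. All stayed at low level: Mmp13 was at 0 to 0.125 CPM in QSCs (12 counts in all 6 libraries) and at 0.959 to 15.2 CPM in ASCs, a log2 change of 7.07 ± 1.08 (adjusted p = 7.07e-05) and 6.46 ± 0.95 without ASC 6. Mmp12 was at 1.90 to 3.05 CPM in QSCs, at 4.16 to 7.78 CPM in ASC 1 to 5 and at 55.4 CPM in ASC 6. Its log2 fold change moved from 2.66 ± 0.62 (adjusted p = 0.00208) to 1.40 ± 0.20 without ASC 6. Mmp8 was at 0 to 1.05 CPM in QSCs and at 0.514 to 5.63 CPM in ASCs, which overlap (2.96 ± 0.82, adjusted p = 0.00686, and 2.45 ± 0.76 without ASC 6). Mmp3 and Mmp27 had 8 and 4 counts in all QSC libraries, so the size of their fitted change depends on how low counts are treated. These 5 genes and all 9 macrophage markers were highest in ASC 6. Of 6 neutrophil markers 3 were, and their sum was 57.8 CPM in ASC 6 and 1.199 to 47.9 CPM in ASC 1 to 5. The part of such cells in the levels of these genes was not tested.

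Promoter windows are shown for the members whose window held an AP-1 motif, the binding sequence of the Fos and Jun proteins. That of Timp1, the member of highest mean level per length in ASCs, is shown as well. RefSeq windows of 300 bases (250 before to 50 after the start, GRCm38.p6) were found for 39 of the 64 genes. The AP-1 motif TGANTCA, which reads the same on both strands, was in 4 of these 39 (10.3%) and in 8.97% of the 27025 genes with a window. The Gli motif GACCACCCA, searched on both strands, was in none of the 39 and in 0.289% of all genes. The 4 genes were Mmp13, Mmp12, Mmp3 and Adam19, each called higher in ASCs, as were 30.4% of all genes. Mmp3 is in the table through its ASC reads only, so its direction was set by the filter. The 3 MMPs are neighbours on chromosome 9, and a link between motif and change was not tested. Capitals mark the motif, which begins 35 bases before the start of Mmp13, 44 before that of Mmp12, 46 before that of Mmp3 and 131 before that of Adam19. All 5 windows lie on the plus strand, at chr9:7272264-7272563, chr9:7347124-7347423, chr9:7445572-7445871, chr11:46055734-46056033 and chrX:20869916-20870215 in the order shown.
Mmp13: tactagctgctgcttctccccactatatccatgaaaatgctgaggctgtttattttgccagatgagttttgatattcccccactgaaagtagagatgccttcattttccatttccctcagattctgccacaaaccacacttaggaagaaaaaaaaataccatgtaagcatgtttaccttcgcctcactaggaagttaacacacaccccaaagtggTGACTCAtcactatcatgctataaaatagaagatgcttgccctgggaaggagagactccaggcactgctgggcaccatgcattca
Mmp12: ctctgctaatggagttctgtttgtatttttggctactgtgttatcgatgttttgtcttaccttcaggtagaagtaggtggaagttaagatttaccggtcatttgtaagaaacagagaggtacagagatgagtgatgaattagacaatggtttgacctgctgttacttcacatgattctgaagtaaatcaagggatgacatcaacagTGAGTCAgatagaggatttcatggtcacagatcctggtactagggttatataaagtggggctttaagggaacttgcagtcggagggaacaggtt
Mmp3: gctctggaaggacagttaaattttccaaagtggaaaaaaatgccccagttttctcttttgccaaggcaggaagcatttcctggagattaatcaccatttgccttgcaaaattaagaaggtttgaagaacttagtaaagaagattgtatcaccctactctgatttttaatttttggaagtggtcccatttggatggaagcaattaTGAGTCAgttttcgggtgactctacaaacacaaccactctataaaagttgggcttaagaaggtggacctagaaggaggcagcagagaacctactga
Adam19: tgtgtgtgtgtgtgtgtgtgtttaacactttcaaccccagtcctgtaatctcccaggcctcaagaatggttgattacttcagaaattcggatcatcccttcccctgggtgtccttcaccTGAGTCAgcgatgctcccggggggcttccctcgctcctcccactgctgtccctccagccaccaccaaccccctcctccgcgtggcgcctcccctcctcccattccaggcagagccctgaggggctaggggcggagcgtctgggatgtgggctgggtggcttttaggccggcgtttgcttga
Timp1: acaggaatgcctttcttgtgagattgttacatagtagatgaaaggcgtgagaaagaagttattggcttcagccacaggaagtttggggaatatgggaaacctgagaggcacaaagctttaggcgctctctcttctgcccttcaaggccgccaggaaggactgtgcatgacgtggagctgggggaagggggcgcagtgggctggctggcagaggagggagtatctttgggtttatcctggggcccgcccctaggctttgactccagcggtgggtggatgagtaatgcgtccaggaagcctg
In the 3 MMP windows the motif thus lay at nearly the same distance from the start, whereas that of Adam19 lay further upstream. A match is a description of the letters only. Transcripts of 4 AP-1 proteins, Fos, Fosb, Jun and Junb, summed to 18789 to 24478 CPM in QSCs, to 928 to 1273 CPM in ASC 1 to 5 and to 2720 CPM in ASC 6. They belong to a list of 8 genes of the response to tissue dissociation, which summed to 28509 to 37208 CPM in QSCs, to 1184 to 1669 CPM in ASC 1 to 5 and to 3712 CPM in ASC 6.

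The remaining MMPs varied. Mmp17 and Mmp23 were called higher with and without ASC 6, and Mmp28 only with it. The log2 fold change of Mmp17 was 2.00 with ASC 6 and 0.76 without. Mmp19 ranged from 4.46 to 68.7 CPM among ASCs, with ASC 5 and ASC 6 at 65.6 and 68.7 CPM, and did not pass the test (0.71 ± 0.52, adjusted p = 0.263). Mmp11, a stromelysin by name, had overlapping values of 3.58 to 11.3 CPM in QSCs and 4.62 to 11.9 CPM in ASCs. Mmp24 and Mmp25 were at or below 1.09 CPM in all libraries and did not pass the test.

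**Figure D5:**
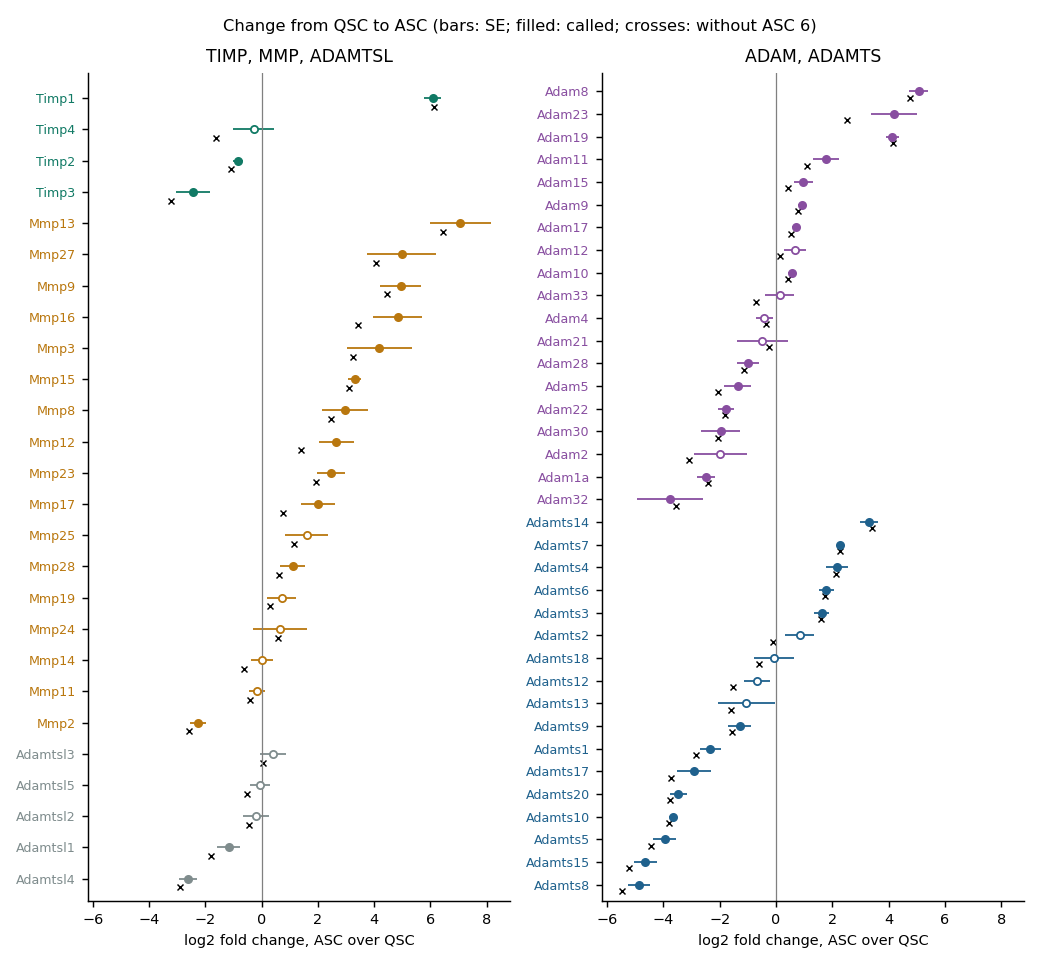
log2 fold change of ASCs over QSCs with its SE (edgeR, n = 6 and 6) for the 62 genes with more than 3 counts in QSCs, by class; filled circles are called, open circles are not, and crosses give the value without ASC 6. Most MMPs lie to the right of 0, most abundant ADAMTS genes to the left, and for Adam23, Mmp12, Mmp17 and Timp4 the cross lies well below the circle.

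Of 9 proteolytic ADAMs, a group formed after values were seen, 6 rose and 1 fell (all genes, 30.4% called higher and 28.8% lower). Adam8, a sheddase also found on leukocytes, was at 1.57 to 4.74 CPM in QSCs (median 2.78) and at 57.7 to 187 CPM in ASCs (median 80.2). The states were far apart with and without ASC 6, which held the highest value (5.07 ± 0.35, adjusted p = 3.99e-08, edgeR, and 4.75 ± 0.25 without ASC 6). Leaving out ASC 6 does not remove macrophage markers, which summed to 272 to 888 CPM in ASC 1 to 5 and 11.0 to 30.9 CPM in QSCs. The part of such cells in the Adam8 level was not tested. Adam19, known as meltrin beta, which sheds neuregulin, was at 8.31 to 19.1 CPM in QSCs (median 10.9) and at 176 to 285 CPM in ASCs (median 219). Here ASC 6 had the lowest ASC value, and the log2 fold change was 4.13 ± 0.24 (adjusted p = 8.90e-09) and 4.17 ± 0.23 without it.

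The sheddases Adam10, Adam17 and Adam9 were abundant in both states and rose by less. Adam10, which cuts Notch receptors and cadherins, was at 79.6 to 103 CPM in QSCs and at 115 to 200 CPM in ASCs (0.57 ± 0.13, adjusted p = 0.00204). Adam17, which releases TNF and ligands of the EGF receptor, was at 60.2 to 80.7 CPM in QSCs and at 92.7 to 170 CPM in ASCs (0.72 ± 0.15, adjusted p = 7.99e-04). Adam9 was at 57.9 to 75.7 CPM in QSCs and at 99.6 to 168 CPM in ASCs (0.92 ± 0.13, adjusted p = 4.31e-05). For these 3 genes every ASC library was above every QSC library, and the call held without ASC 6. Adam15 was also called (0.97 ± 0.33, adjusted p = 0.0224), but with 27.3 to 53.6 CPM in ASC 1 to 5, 132 CPM in ASC 6 and 23.6 to 29.1 CPM in QSCs, its log2 fold change without ASC 6 was 0.44 ± 0.15. Adam12, or meltrin alpha, first described in myoblast fusion, was at 10.8 to 26.4 CPM in QSCs and at 14.4 to 33.2 CPM in ASC 1 to 5, against 83.2 CPM in ASC 6 (0.68 ± 0.39, adjusted p = 0.148).

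The non-proteolytic ADAMs of the nervous system split. Adam22 fell from 16.6 to 31.5 CPM in QSCs to 3.32 to 10.8 CPM in ASCs (−1.78 ± 0.29, adjusted p = 1.38e-04, and −1.82 ± 0.31 without ASC 6). Adam23 was at 0.829 to 1.60 CPM in QSCs, at 2.42 to 10.3 CPM in ASC 1 to 5 and at 103 CPM in ASC 6. The change of Adam23 was 4.19 ± 0.82 (adjusted p = 6.12e-04) with ASC 6 and 2.52 ± 0.32 without. Of 7 ADAMs known from testis, a group formed after values were seen, 4 were called lower and none higher (all genes, 28.8% and 30.4%). Among the 4, Adam32 is in the table through its QSC reads only, and Adam5 and Adam30 lost their call in some fits that left out a library. Adam1a was the most abundant of the 7, at 10.2 to 33.2 CPM in QSCs and 1.90 to 4.26 CPM in ASCs (−2.49 ± 0.31, adjusted p = 1.07e-05, edgeR). Its exons overlap those of Mapkapk5 on the same strand, so its counts are uncertain. The others were below 2 CPM in all libraries.

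Of the 7 proteoglycanase ADAMTS genes 6 fell and 1 rose, against 28.8% of all genes called lower and 30.4% higher. The group was formed after values were seen, so its split is a description only. All 19 ADAMTS proteases split into 7 higher and 8 lower. The lowest 3 log2 fold changes of the 64 genes were those of Adamts8, Adamts15 and Adamts5. Adamts8 was at 25.3 to 34.2 CPM in QSCs (median 27.7) and at 0.537 to 2.54 CPM in ASCs (median 0.6246), with ASC 6 highest (−4.88 ± 0.39, adjusted p = 1.82e-07, and −5.49 ± 0.16 without ASC 6, the other 5 being at 0.805 CPM or below). Its neighbour on chromosome 9, Adamts15, was at 116 to 186 CPM in QSCs (median 144) and at 2.18 to 15.3 CPM in ASCs (median 4.69; −4.64 ± 0.42, adjusted p = 5.42e-07, and −5.21 ± 0.25 without ASC 6). Neither pair of ranges overlapped.

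Adamts5 and Adamts1, which lie within 108 kb of each other on chromosome 16 (chr16:85793827-85901828, GRCm38), also fell together. Adamts5 was at 134 to 324 CPM in QSCs (median 265) and at 8.04 to 38.1 CPM in ASCs (median 11.4; −3.95 ± 0.40, adjusted p = 1.80e-06, and −4.45 ± 0.28 without ASC 6). Adamts1 was at 429 to 738 CPM in QSCs (median 543) and at 42.2 to 273 CPM in ASCs (median 84.9; −2.33 ± 0.37, adjusted p = 9.74e-05, and −2.84 ± 0.24 without ASC 6). The part of the dissociation response, which was higher in the same QSC libraries, in the level of Adamts1 was not tested. Adamts20 fell by 3.47 on the log2 scale, from 50.7 to 111 CPM to 4.61 to 14.9 CPM (SE 0.29, adjusted p = 2.82e-07), and by 3.78 without ASC 6. Adamts9 fell by 1.30 (SE 0.40, adjusted p = 0.0122; by 1.55 without ASC 6), with 56.0 to 125 CPM in QSCs and 8.68 to 69.8 CPM in ASCs, and its ranges overlapped through ASC 5 and ASC 6.

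Adamts4 was the exception in this group. It was at 4.72 to 31.2 CPM in QSCs (median 13.1) and at 36.6 to 102 CPM in ASCs (median 78.2). All 6 ASC values were above the QSC values (2.17 ± 0.40, adjusted p = 3.78e-04, and 2.12 ± 0.42 without ASC 6). Among the substrates of this group, versican (Vcan) was at 5.64 to 34.8 CPM in QSCs and at 195 to 359 CPM in ASCs (4.62, adjusted p = 2.61e-06).

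The procollagen N-propeptidases trim fibrillar procollagens outside the cell. Adamts14 was at 7.79 to 24.8 CPM in QSCs (median 17.4), at 162 to 197 CPM in ASC 1 to 5 and at 76.1 CPM in ASC 6. All ASC values exceeded the QSC values, and ASC 6 was the lowest of them (3.30 ± 0.31, adjusted p = 8.47e-07, and 3.43 ± 0.26 without it). Adamts3, from the same group, rose from 0.609 to 1.499 CPM to 2.49 to 4.37 CPM (1.63 ± 0.27, adjusted p = 1.58e-04). Adamts2 was at 5.47 to 14.3 CPM in QSCs and at 6.502 to 12.3 CPM in ASC 1 to 5, but at 66.9 CPM in ASC 6, and did not pass the test in either form.

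Other ADAMTS genes moved in both directions. Adamts10 was at 312 to 504 CPM in QSCs (median 459) and at 30.4 to 44.8 CPM in ASCs (median 32.4). Of the 10 largest falls among members that averaged at least 1 CPM this had the smallest SE, a log2 change of −3.68 ± 0.14 (adjusted p = 6.09e-10), and −3.80 ± 0.13 without ASC 6. Its partner in the fibrillin-associated group, Adamts6, rose from 2.22 to 4.39 CPM to 6.61 to 16.1 CPM (1.79 ± 0.26, adjusted p = 4.74e-05). Adamts7, which cleaves cartilage oligomeric matrix protein, rose from 6.82 to 10.1 CPM to 33.8 to 45.7 CPM (2.28 ± 0.13, adjusted p = 8.86e-09), with ASC 6 at 34.8 CPM among the others. Adamts12, of the same group, was at 29.9 to 33.9 CPM in QSCs and 6.502 to 16.7 CPM in ASC 1 to 5, against 64.5 CPM in ASC 6, and was called only without it (−1.53 ± 0.20, adjusted p = 1.45e-05). Adamts17 fell from 1.76 to 6.40 CPM to 0.159 to 1.49 CPM (−2.90 ± 0.61, adjusted p = 9.69e-04). Its highest ASC value was in ASC 6, the other 5 were at 0.663 CPM or below, and the change without ASC 6 was −3.72 ± 0.50. Adamts19, without a count in QSCs, had 44 counts over the 6 ASC libraries, a mean of 0.158 CPM, and is in the table through these reads only.

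Among the ADAMTS-like genes, whose products bind microfibrils without cutting them, Adamtsl4 fell from 45.0 to 77.5 CPM in QSCs (median 66.9) to 4.41 to 18.5 CPM in ASCs (median 10.3; −2.61 ± 0.32, adjusted p = 9.26e-06, and −2.89 ± 0.29 without ASC 6). Adamtsl1 was at 23.4 to 46.7 CPM in QSCs and at 5.49 to 14.5 CPM in ASC 1 to 5, with ASC 6 at 39.8 CPM (−1.18 ± 0.40, adjusted p = 0.0203, and −1.79 ± 0.23 without ASC 6). Adamtsl2, Adamtsl3 and Adamtsl5 had overlapping values and did not pass the test with or without ASC 6.

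ASC 6 held the highest of the 6 ASC values for 47 of the 64 genes, against 7772 of all 25093 genes. This was so for 16 of 17 MMPs, 11 of 19 ADAMs, 13 of 19 ADAMTS genes, 4 of 5 ADAMTS-like genes and 3 of 4 TIMPs. The genes lowest in ASC 6 included Timp1, Adam19 and Adamts14, which were among the largest rises in the other 5 libraries. ASC 6 also had the highest sums of macrophage, fibro-adipogenic, Schwann, endothelial and mural markers and the lowest of satellite cell markers; the part of such cells in its protease values was not tested.

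A further 3 lists of related genes were followed beside the family, and their counts are read against 30.4% of all genes called higher and 28.8% lower. The shares were not tested against each other, and the lists hold fewer genes of low level. In QSCs 27 of 29 regulators, 25 of 29 membrane proteins and 21 of 25 matrix substrates averaged at least 1 CPM, against 14692 of all 25093 genes. Of 29 measured regulators of these proteases 11 rose and 13 fell in ASCs, in all 82.8% against 59.2% of all genes, and 11 rose and 15 fell without ASC 6. Tspan14, a tetraspanin that escorts Adam10 to the surface, rose from 5.78 to 8.61 CPM to 41.5 to 93.2 CPM (2.96, adjusted p = 6.86e-08), while Tspan15, which serves the same enzyme, fell from 60.8 to 69.4 CPM to 7.64 to 18.9 CPM (−2.60, adjusted p = 1.15e-07). Reck, a membrane-anchored MMP inhibitor, fell from 27.1 to 43.7 CPM to 3.75 to 23.7 CPM (−1.97, adjusted p = 9.91e-04). The 23.7 CPM was in ASC 6, the other 5 were at 7.32 CPM or below, and the change of Reck without ASC 6 was −2.67. Testican genes, matrix proteoglycans that bear on MMP activity, fell as well: Spock1 by 4.70 and Spock3 by 6.03 on the log2 scale. Plaur, the urokinase receptor, rose from 1.85 to 17.2 CPM to 47.2 to 74.9 CPM (3.52, adjusted p = 6.85e-05).

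Of 29 membrane proteins cut by ADAMs, leaving out Vcam1, which was part of the ASC gate, 12 rose and 10 fell, in all 75.9% against 59.2% of all genes, and 12 rose and 12 fell without ASC 6. The receptors Notch1, Notch2 and Notch3, substrates of Adam10, fell by 1.36, 1.70 and 3.12 on the log2 scale. Of the Notch ligands in the list, Dll1 rose (1.70, adjusted p = 1.30e-06) and Dll4 did not pass the test. The ligand Jag1 fell from 97.4 to 171 CPM to 13.3 to 62.3 CPM (−2.18, adjusted p = 4.39e-05). The EGF receptor ligand Areg, a substrate of Adam17, rose from 0.0882 to 0.536 CPM to 4.50 to 22.9 CPM (5.79, adjusted p = 5.40e-07), whereas the receptor Egfr fell from 466 to 925 CPM to 92.4 to 125 CPM (−2.53, adjusted p = 2.91e-08). Cd44, a hyaluronan receptor, rose (4.03, adjusted p = 6.78e-07), and so did Cdh2, or N-cadherin (4.25, adjusted p = 1.24e-09).

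Of 25 matrix substrates 7 rose and 10 fell with all libraries, in all 68% against 59.2% of all genes, and 5 rose and 12 fell without ASC 6. Lama2, the laminin chain of the muscle basal lamina, fell from 626 to 826 CPM to 84.5 to 161 CPM (−2.59, adjusted p = 1.06e-08), with ASC 6 inside the range of the others. Fibronectin (Fn1) rose from 28.3 to 47.6 CPM to 198 to 537 CPM in ASC 1 to 5 and 2240 CPM in ASC 6 (4.00, adjusted p = 4.28e-05, and 3.00 without ASC 6). Tenascin-C (Tnc) rose from 1.07 to 36.3 CPM to 120 to 356 CPM (4.74, adjusted p = 2.54e-04). Col1a1, at 2934 CPM in ASC 6 and 118 to 376 CPM in the other 5, was called only with ASC 6.

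After deletion of Gli3 in QSCs none of the members of these 3 lists was called by edgeR or limma-voom, and DESeq2 called Pcsk6 alone. Unadjusted p-values under 0.05 were found for 4 of 29 regulators, 3 of 30 membrane substrates and 6 of 25 matrix substrates, against 7.11% of all genes. The laminin chains Lamc1 and Lamb1 and the regulator Reck had higher values in Gli3Δ/Δ, and Vcan, Tnc and Pcsk6, a proprotein convertase, lower ones. For Vcan and Tnc, Gli3+/+ library 3 was far above the other QSC libraries. Vcan was at 10.3, 5.64 and 34.8 CPM in Gli3+/+ and at 6.53, 7.20 and 5.64 CPM in Gli3Δ/Δ. Tnc was at 8.16, 1.35 and 36.3 CPM against 3.72, 1.07 and 2.72 CPM, and the groups overlapped for both genes.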

How the data were processed

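Poly(A) RNA of sorted satellite cells was sequenced in 12 libraries. The authors quantified reads with salmon 0.13.1 on GRCm38 GENCODE transcripts, loaded them with tximport, and kept genes with 5 or more reads in at least 2 samples. The deposited values are estimated counts per gene, of which 44.3 to 51.0% per library were not whole, and they were rounded here. Fold changes and p-values in the authors' table were not used. Totals ran from 36886130 to 65750131 counts.

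Counts were fitted with edgeR 4.0.16 (quasi-likelihood, TMM, R 4.3.3) over all 25093 genes, for genotype in 6 QSC libraries and for state in all 12. A gene was called at a Benjamini-Hochberg adjusted p below 0.05 and a change of at least 1.2-fold. Alternatives were DESeq2 1.42.0, limma 3.58.1 with voom and quality weights, DESeq2 size factors, filters on low counts, a replicate block and leaving out each library. The fitting code was tested on simulated data. Levels are TMM-scaled CPM, and exon lengths came from GENCODE vM21 on the same build. The deposited comparison tables also hold a signal column, the authors' mean of size-factor-scaled counts over all samples, against which the mean of the 12 columns was checked (Pearson r across genes of log10 values 0.999).

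Members and lists were chosen with earlier results of these data known, and roles were assigned after values were seen. Named were all TIMPs, the 6 most abundant genes of each class in QSCs, genes with an unadjusted p under 0.05 or no overlap between genotypes at 1 CPM or more, and the 10 largest rises and falls on activation. Others named were chosen after their values were seen. Same-numbered QSC libraries did not deviate together (r = −0.254, −0.029 and −0.057), so the numbers were not used as pairs.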

Additional observations from a re-analysis of the deposited data

Results flagged for a closer look

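Among the named genes, 27 values lay far from the other 5 libraries of their state, by Dixon's ratio of the gap to the range. Chance flags about 1 in 20 groups. Of these values 22 were in ASC 6. Its value was the highest for Timp2 (602 CPM), Timp3 (278), Timp4 (15.3), Mmp9 (25.6), Mmp12 (55.4), Mmp14 (238), Mmp15 (105) and Mmp16 (12.7 CPM). The same held for Adam10 (199.6 CPM), Adam12 (83.2), Adam15 (132), Adam17 (169.5) and Adam23 (103 CPM). It also held for Adamts1 (273 CPM), Adamts5 (38.1), Adamts8 (2.54), Adamts10 (44.8), Adamts15 (15.3), Adamts20 (14.9), Adamtsl1 (39.8) and Adamtsl5 (10.3 CPM). Adamts14 was the reverse case, with its lowest ASC value in ASC 6 (76.1 CPM). Over all 64 genes, 33 had such a value among the ASC libraries, 32 of them in ASC 6, and 8 had one among the QSC libraries.

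Among the QSC libraries, Gli3+/+ library 1 was high for Mmp8 (1.05 CPM) and Timp4 (12.4 CPM), Gli3+/+ library 2 for Adam1a (33.2 CPM), Gli3+/+ library 3 for Mmp19 (34.8 CPM) and Gli3Δ/Δ library 2 for Mmp16 (0.259 CPM).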

How the results depend on the processing

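For the effect of Gli3 in QSCs, 88 genes were called with all settings as reported, 384 with DESeq2 and 48 when 10 counts were required in every library. Leaving out a library gave 58 to 103. Of the 64 family members none was called in the reported fit and 3 were with DESeq2, namely Adam22, Adamts14 and Adamts4. The median log2 fold change of the family was −0.0179 as reported, −0.0697 with limma-voom, and −0.0743 to 0.0924 when a library was left out. With the replicate block 79 genes and none of the 64 members were called. The causes were not tested. On activation, 46 members were called as reported and 43 to 49 when a library was left out, 43 with DESeq2, which gave no adjusted p for Adam23, Mmp12 and Mmp17, and 47 with limma-voom. Against the 3 Gli3+/+ QSC libraries alone 34 were called, and like limma-voom for activation this alternative was chosen after seeing the data. The 12 lost were Adam5, Adam11, Adam15, Adam28, Adam30, Adamts9, Adamtsl1, Mmp3, Mmp8 (adjusted p = 0.0916), Mmp17, Mmp27 and Mmp28. Adam5, Adam28, Adam30 and Mmp28 also lost their call in some fits that left out a library. The 5 members lost under edgeR's filter on low counts were not tested there. With limma-voom, Adam32 and Mmp28 lost their call. Among members that averaged at least 1 CPM over both states, the 10 largest falls and, but for Mmp8, the 10 largest rises kept their calls wherever an adjusted p was given. The effect of Gli3 in ASCs and a replicate block for activation were not run, as the ASC columns carry neither genotype nor replicate number. Members under about 1 CPM rest on few counts.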
